A study of Homo sapiens with 21 samples.

Results

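In HepG2 cells, 9 genes of the transforming growth factor beta (TGF beta) and YAP pathways were followed through 7 caffeine conditions. They were chosen by symbol: CCN1 (also called CYR61), CCN2 (also called CTGF), ANKRD1, TGFB1, TGFB2, TGFBR1, TGFBR2, SMAD3 and SMAD7. All 9 members were found among the 37637 features of the count table, and 8 of them were among the 17951 features with enough reads to be tested, the exception being TGFB2. HepG2 is a human liver cancer line with many hepatocyte features. Its cells received caffeine at 0.01, 0.1, 1, 10, 100 or 1000 µM, or none, and poly(A) RNA was sequenced from 3 cultures per condition, 21 libraries in all. Every culture, the untreated control included, spent its 24 h in medium without serum and was detached with trypsin before the RNA was taken. All values therefore describe 1 cell line, kept without serum, at 1 time.

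TGF beta ligands are secreted in a latent form and, once released, bind a receptor complex in which TGFBR2 activates TGFBR1. The active complex phosphorylates SMAD2 and SMAD3, which enter the nucleus with SMAD4. SMAD7 is a target of the pathway that also inhibits the receptors. In the Hippo pathway the kinases LATS1 and LATS2 hold the co-activators YAP (gene YAP1) and TAZ (gene WWTR1) out of the nucleus. Free YAP and TAZ bind DNA through TEAD factors. CCN1, CCN2 and ANKRD1 are the genes most often read as a sign of YAP activity, and CCN2 also responds to TGF beta. In liver both pathways are studied for their part in fibrosis and in cancer.

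The promoter sequences of the 2 members with repeated TEAD motifs are shown because that motif is where YAP and TAZ reach DNA. RefSeq promoter windows were found for 8 of the 9 members, all but CCN1, on GRCh38.p14. In each, the 250 bases before the start were searched on both strands for GGAATG, the core TEAD motif. The stretches run 5′ to 3′ along the gene and are limited to bases that also lie upstream of the GENCODE 29 gene. Capitals mark the TEAD motif. The CCN2 stretch is chr6:131951374-131951622, minus strand, and the ANKRD1 stretch is chr10:90921277-90921337, minus strand.
CCN2: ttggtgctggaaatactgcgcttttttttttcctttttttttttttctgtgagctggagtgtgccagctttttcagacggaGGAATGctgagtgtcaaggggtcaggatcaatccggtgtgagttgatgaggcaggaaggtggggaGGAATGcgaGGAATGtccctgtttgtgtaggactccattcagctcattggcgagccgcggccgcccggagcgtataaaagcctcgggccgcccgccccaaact
ANKRD1: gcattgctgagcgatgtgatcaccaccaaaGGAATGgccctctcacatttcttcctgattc

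The CCN2 window held 3 matches, beginning at positions -169, -104 and -95 from the RefSeq start. The ANKRD1 window held 2, at -220 and -128, and the printed stretch contains the first of them. The ANKRD1 window also held 1 match to the AP-1 motif TGANTCA, at -195. The TGFB2 window held 1 TEAD match on the opposite strand, at -185. Among 35116 promoter windows of this length, 11.9% held at least 1 TEAD motif, 0.94% at least 2 and 0.0826% at least 3. The windows of TGFB1, TGFBR1, TGFBR2, SMAD3 and SMAD7 held neither motif, nor the CRE TGACGTCA, the SMAD palindrome GTCTAGAC or the CArG box. Those motifs were present in 6.57% (AP-1), 1.65% (CRE), 0.182% (SMAD) and 1.16% (CArG) of all windows. All 250 bases of the TGFBR1, SMAD3 and SMAD7 windows lie inside the GENCODE 29 gene. For these genes the sequence upstream of the GENCODE 29 start was therefore not searched. A match is a run of letters and was not tested for function.

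The libraries held 23502519 to 44815552 counts. They fell into 3 sets by the levels of the 13 mitochondrial mRNAs, and these sets cut across the doses. Set A (11 libraries; 9.93% to 14.2% of counts from these mRNAs) took in the whole of the control, 0.01 µM and 0.1 µM groups and, of the 1 µM group, the first and second replicates. Set B (7 libraries; 4.70% to 4.93%) took in the third replicate of the 1 µM group, the whole 10 µM group, the second of the 100 µM group and the first and second of the 1000 µM group. Set C (3 libraries; 11.7% to 12.8%) was made of the remaining libraries, 2 of the 100 µM group and 1 of the 1000 µM group. No control lies in set B or C, and no library at 10, 100 or 1000 µM lies in set A. From the control and any of these dose groups alone, dose and set cannot be told apart. The result for each tested member at the 2 highest doses is therefore given also from a fit that holds the set as a term (the set term below), in which a single 1 µM library joins set A to the others, and from 1000 against 10 µM within set B. Levels are given as CPM, that is, counts relative to library size, with the sizes scaled by the trimmed mean of M-values (TMM). Of the 10 stellate cell and fibroblast markers, COL1A1, COL1A2, COL3A1, PDGFRA, DCN and LUM had at most 2 counts in any library, and the summed level of the list was 39.2 to 43.4 CPM in controls, 46.2 to 58.8 CPM at 100 µM and 34.0 to 48.5 CPM at 1000 µM. Within that list PDGFRB went from 3.18 to 3.79 CPM in controls to 18.1 to 23.5 CPM at 1000 µM, and ACTA2 from 34.7 to 39.2 CPM to 15.2 to 24.3 CPM. Together the 10 hepatocyte markers made up 36040 to 44720 CPM in controls, 34920 to 36030 CPM in the 100 µM group and 28840 to 30250 CPM in the 1000 µM group. This sum hides genes that moved in opposite directions. Under the set term at 1000 µM, APOB was higher than control (log2 fold change 0.59) and AFP lower (-1.39). The immune list summed to 937 to 1062 CPM in controls and 1396 to 1923 CPM in the 1000 µM group, nearly all of it LYZ, with CD3E at 0 in all 21 libraries and PTPRC at 0 in 20. The part of these markers in the results was not tested.

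Between genes, levels are given per kilobase of exon (CPM per kb, GENCODE 29 lengths). In control cells CCN2 was the most abundant member at 438 ± 11.4 CPM per kb (SD, n = 3). CCN1 followed at 102 ± 9.42 and ANKRD1 at 96.4 ± 12.6, which did not differ beyond their spread. The receptor TGFBR2 stood at 32.1 ± 2.84 CPM per kb, the ligand TGFB1 at 12.5 ± 0.993 and the receptor TGFBR1 at 6.31 ± 0.620. SMAD7 (5.79 ± 0.176) and TGFBR1 lay within 1 SD of each other, and SMAD3 was lowest among the tested members at 4.91 ± 0.1249. HepG2 cells thus held far more mRNA of the 3 YAP target genes than of the TGF beta receptors and SMADs.

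The 3 YAP target genes fell at the high doses and at 100 µM showed the largest fold changes of the tested members. CCN1 fell by 2.77 on the log2 scale at 100 µM and by 2.32 at 1000 µM, ANKRD1 by 1.95 and 1.86, and CCN2 by 1.40 and 0.58. At 0.01, 0.1 and 1 µM none of the 3 passed the test. From 100 to 1000 µM CCN2 rose by 0.82 and CCN1 rose by 0.45, while ANKRD1 stood 0.09 higher, a difference that did not pass.

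**Figure D1:**
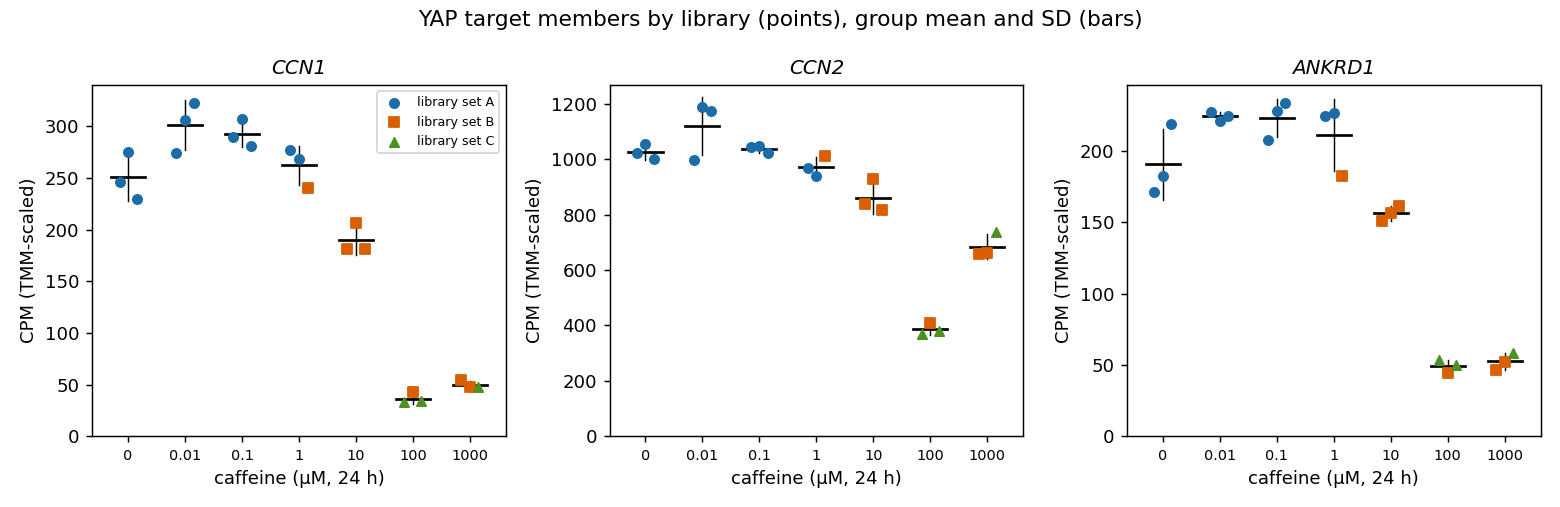
Levels of CCN1, CCN2 and ANKRD1 (CPM, linear axes from 0) at each caffeine dose, with 1 point per library coloured by mitochondrial library set, and bars for the group mean and SD (n = 3). The 3 libraries at 100 µM and the 3 at 1000 µM lie below every control in all 3 panels, in set B and in set C, while every control is in set A.

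CCN1 encodes a secreted matrix protein that binds integrins and acts on adhesion, migration and cell death (ENSG00000142871.17, chromosome 1, 85580761 to 85583962, plus strand, GRCh38 as in GENCODE 29). The 3 controls held 246, 276 and 230 CPM. At 0.01 µM the libraries held 275, 306 and 323 CPM, at 0.1 µM 290, 307 and 281, and at 1 µM 277, 269 and 241. At 10 µM the values were 181, 206 and 181 CPM. At 100 µM they were 33.1, 42.6 and 34.2, and at 1000 µM 54.7, 47.8 and 47.6. The libraries at 0.1 µM lay above all 3 controls, those at 0.01 and 1 µM overlapped them, those at 10 µM lay below all 3 controls, and those at 100 and 1000 µM lay far below every other library. In edgeR's quasi-likelihood test across all features, CCN1 was 6.83-fold lower at 100 µM (log2 fold change -2.77, SE 0.110, adjusted p = 2.37e-12). It was 5.01-fold lower at 1000 µM (log2 fold change -2.32, SE 0.107, edgeR adjusted p = 2.14e-12), and higher at 1000 than at 100 µM by 0.45 (edgeR adjusted p = 0.00177). In bulk RNA a lower level per cell and fewer cells holding the transcript cannot be told apart.

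The fall of CCN1 at the 2 highest doses was also called in both settings that take the sets into account. In the fit with the set term the log2 fold change was -2.45 at 100 µM (edgeR adjusted p = 1.62e-08) and -2.07 at 1000 µM (edgeR adjusted p = 5.4e-09). Within set B alone, 1000 µM was lower than 10 µM by -1.91 on the log2 scale (SE 0.081, edgeR adjusted p = 9.02e-09). The smaller difference at 10 µM, a log2 fold change of -0.40 (SE 0.102, edgeR adjusted p = 0.0145), was -0.22 with the set term and no longer passed (adjusted p = 1). It also missed the threshold without control replicate 2 (-0.33, adjusted p = 0.0696), without 10 µM replicate 1 (-0.37, adjusted p = 0.0704) and without 10 µM replicate 3 (-0.37, adjusted p = 0.0626), at similar sizes.

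CCN2 encodes connective tissue growth factor, a secreted matrix protein known as a driver of liver fibrosis (ENSG00000118523.6, chromosome 6, 131948176 to 131951373, minus strand). Its promoter is the one with 3 TEAD motifs above. The controls held 1020, 1053 and 1000 CPM, and the libraries at 0.01 µM 997, 1186 and 1173. At 0.1 µM they held 1043, 1048 and 1020 CPM and at 1 µM 969, 940 and 1010. At each of these 3 doses the libraries overlapped the controls. At 10 µM the libraries held 838, 929 and 817 CPM, at 100 µM 371, 411 and 381, and at 1000 µM 657, 660 and 737. The lowest group was thus 100 µM, and the libraries at 1000 µM sat between those at 100 and those at 10 µM without overlap with either. CCN2 was 2.64-fold lower than control at 100 µM (log2 fold change -1.40, SE 0.080, edgeR adjusted p = 1.61e-10) and 1.496-fold lower at 1000 µM (-0.58, SE 0.079, edgeR adjusted p = 3.89e-06). The rise from 100 to 1000 µM was 0.82 on the log2 scale (edgeR quasi-likelihood, adjusted p = 1.08e-07).

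Fitted with the set term, CCN2 was lower at 100 µM by -1.50 (edgeR adjusted p = 9.02e-07) and at 1000 µM by -0.67 (edgeR adjusted p = 0.000715), and the difference between these doses was 0.83 (edgeR adjusted p = 6.15e-08). Within set B it was lower at 1000 than at 10 µM by -0.41 (edgeR adjusted p = 7.28e-05). The difference at 10 µM against control (-0.25, SE 0.079, edgeR adjusted p = 0.0395) was close to the threshold. The set term gave -0.33, which did not pass (edgeR adjusted p = 0.987). Without any 1 of the control libraries the value was -0.26 to -0.23 and did not pass either (edgeR adjusted p = 0.0583 to 0.113). The call was also lost with no filter (-0.22, edgeR adjusted p = 0.245) and with control and 10 µM alone in the fit (-0.24, edgeR adjusted p = 0.0606). It was lost without 10 µM replicate 1 or 3 (edgeR adjusted p = 0.136 and 0.152). Leaving out any 1 of the 0.1 µM libraries or 100 µM replicate 3 had the same result (edgeR adjusted p = 0.052 to 0.0614).

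The ratio of CCN2 to CCN1 counts within a library shows how far the 2 genes parted. It was between 3.82 and 4.35 in controls and between 4.50 and 4.62 in the 10 µM group. It reached 9.65 to 11.2 in the 100 µM group and 12.02 to 15.5 in the 1000 µM group. The ratios at 100 and 1000 µM lay far above those of the controls, and those at 1000 µM above those at 100 µM. The ratios at 10 µM lay just above the controls, but those at 0.1 µM (3.41 to 3.63) lay below them by as wide a margin, so the 10 µM values do not show the genes parting. The differences of the 10, 100 and 1000 µM groups from control and of 1000 from 100 µM each gave p = 0.1 in a two-sided exact permutation test, the smallest value that 3 libraries against 3 allow (0.1). The test cannot rank these differences, since each gave the same p. By the ratios alone, CCN1 stood further below its control level than CCN2 in every library at 100 and 1000 µM.

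ANKRD1 encodes an ankyrin repeat protein of the nucleus and the muscle sarcomere and is a standard YAP readout outside muscle (ENSG00000148677.6, chromosome 10, 90912096 to 90921276, minus strand). The controls held 171, 182 and 219 CPM, and all 9 libraries from 0.01 to 1 µM lay between 182 and 234. At 10 µM the values were 151, 157 and 161 CPM, at 100 µM 53.3, 44.6 and 50.1, and at 1000 µM 46.8, 52.5 and 58.4. The 2 highest doses overlapped each other and lay well apart from all others. ANKRD1 was 3.87-fold lower at 100 µM (log2 fold change -1.95, SE 0.109, edgeR adjusted p = 1.03e-10) and 3.63-fold lower at 1000 µM (-1.86, SE 0.108, edgeR adjusted p = 4.33e-11). Between these doses the difference was 0.09 (SE 0.106, edgeR adjusted p = 0.515). The set term gave -1.79 at 100 µM (edgeR adjusted p = 3.01e-07) and -1.63 at 1000 µM (edgeR adjusted p = 5.17e-08), and within set B the difference from 10 µM was -1.68 (edgeR adjusted p = 3.96e-10). At 10 µM, ANKRD1 stood 0.29 below control on the log2 scale (log2 fold change -0.29) and did not pass (edgeR adjusted p = 0.0684), although no library there overlapped a control. At the same size it passed in DESeq2 (adjusted p = 0.0458) and in edgeR without 1 µM replicate 3 or 1000 µM replicate 3 (adjusted p = 0.041 and 0.0464). With the set term the value at 10 µM was 0.02 and was not called.

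Among the TGF beta members the type II receptor rose, while calls for the ligand TGFB1, the type I receptor and the inhibitory SMAD7 changed with the library set. TGFBR2 gained 0.41 on the log2 scale at 100 µM and 0.89 at 1000 µM. SMAD3 rose by 0.56 at 1000 µM and stood at 0.08 at 100 µM, where it did not pass. The differences were smaller than those of CCN1 and ANKRD1.

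**Figure D2:**
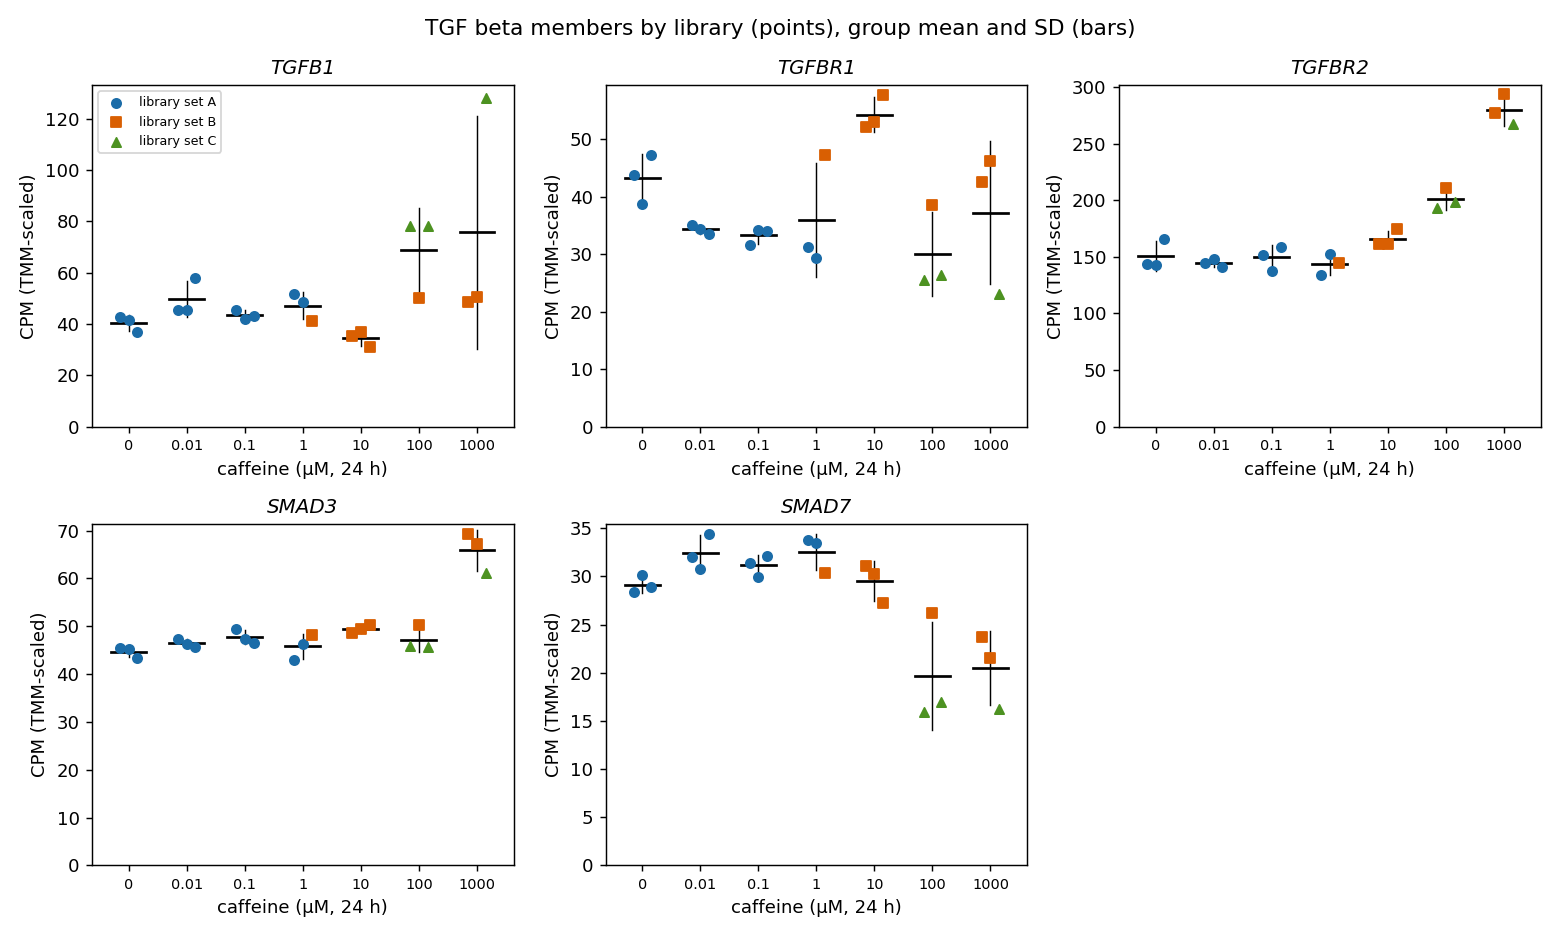
Levels of TGFB1, TGFBR1, TGFBR2, SMAD3 and SMAD7 (CPM, linear axes from 0) at each caffeine dose, with 1 point per library coloured by mitochondrial library set, and bars for the group mean and SD (n = 3). TGFBR2 rises through all libraries at 100 and 1000 µM, while TGFB1, TGFBR1 and SMAD7 separate set C from set B inside those 2 groups.

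TGFB1 encodes the most widely expressed TGF beta ligand (ENSG00000105329.9, chromosome 19, 41301587 to 41353911, minus strand). The controls held 42.9, 41.5 and 36.8 CPM. The 12 libraries from 0.01 to 10 µM lay between 31.2 and 58.0. At 100 µM the values were 78.3, 50.0 and 78.1, and at 1000 µM 48.5, 50.5 and 128. The high values were those of the 3 set C libraries, with 78.3 and 78.1 CPM at 100 µM and 128 CPM at 1000 µM. TGFB1 was higher than control at 100 µM by 0.77 on the log2 scale (SE 0.276, edgeR adjusted p = 0.0317) and at 1000 µM by 0.90 (SE 0.277, edgeR adjusted p = 0.0101). The call at 1000 µM was lost with control and that dose alone in the fit (0.91, edgeR adjusted p = 0.0782) and without 1000 µM replicate 3 (0.29, edgeR adjusted p = 0.119). Between 1000 and 100 µM the difference was 0.14 (edgeR adjusted p = 0.713), with 0.35 under the set term (edgeR adjusted p = 0.0251) and -0.48 without 1000 µM replicate 3, the only set C library of that dose (edgeR adjusted p = 0.0168), so its direction depended on the fit. At 100 µM the call was lost without control replicate 1, 2 or 3, or 100 µM replicate 1 or 3, with values of 0.66 to 0.81 (edgeR adjusted p = 0.0602 to 0.104). Its value with the set term was 0.35 at 100 µM (edgeR adjusted p = 0.338) and 0.70 at 1000 µM (edgeR adjusted p = 0.0196). Within set B, where no set C library enters, TGFB1 was higher at 1000 than at 10 µM by 0.50 (edgeR adjusted p = 6.07e-05).

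TGFB2 encodes a second ligand (ENSG00000092969.12, chromosome 1, 218346235 to 218444619, plus strand). It had 0 counts in 14 of the 21 libraries, at most 2 in any, and 10 in all. Every library thus lay below the level that 3 counts would give, 0.0669 to 0.128 CPM from the deepest to the shallowest library. No comparison between doses was made for it.

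TGFBR1 encodes the type I receptor kinase (ENSG00000106799.13, chromosome 9, 99104038 to 99154192, plus strand). The controls held 43.7, 38.7 and 47.1 CPM. At 0.01 µM the libraries held 35.1, 34.3 and 33.5 and at 0.1 µM 31.6, 34.2 and 34.0, below all 3 controls without passing the test (edgeR adjusted p = 0.458 and 0.592). At 1 µM they held 31.2, 29.3 and 47.3 CPM and at 10 µM 52.0, 52.9 and 57.7. The value of 47.3 belongs to the set B library at 1 µM, and the 3 libraries at 10 µM are also set B. Against control the difference at 10 µM was 0.33 and did not pass (SE 0.210, edgeR adjusted p = 0.301). It passed with control and 10 µM alone in the fit (0.34, edgeR adjusted p = 0.031) and was -0.315 under the set term (edgeR adjusted p = 0.987). At 100 µM the levels were 25.4, 38.5 and 26.3 CPM and at 1000 µM 42.5, 46.1 and 23.1, where the values of 23.1 to 26.3 were the set C libraries. Inside each of the 3 doses that hold more than 1 set, set B was therefore higher than the other set. Against control TGFBR1 did not pass at 100 µM (-0.52, SE 0.212, edgeR adjusted p = 0.0547) or 1000 µM (-0.21, SE 0.211, edgeR adjusted p = 0.408). Without 1000 µM replicate 3 the latter was 0.03. The value at 100 µM passed at nearly the same size in DESeq2 (-0.52, adjusted p = 0.0342), with a minimum of 5 CPM (-0.52, edgeR adjusted p = 0.0425), with control and 100 µM alone in the fit (-0.52, edgeR adjusted p = 0.033) and without 1 µM replicate 3 or 1000 µM replicate 2 or 3 (-0.52 to -0.51). Without 100 µM replicate 2, the set B library there, it was -0.74 (edgeR adjusted p = 0.0125). Under the set term it was lower at 100 µM by -0.69 (edgeR adjusted p = 0.00652) and at 1000 µM by -0.66 (edgeR adjusted p = 0.00213), and also at 0.01 µM by -0.33 (edgeR adjusted p = 0.0452) and 1 µM by -0.51 (edgeR adjusted p = 0.0411). Within set B, 1000 µM was lower than 10 µM by -0.31 (edgeR adjusted p = 0.000922).

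TGFBR2 encodes the type II receptor kinase that binds the ligand (ENSG00000163513.17, chromosome 3, 30606502 to 30694142, plus strand). The controls held 144, 142 and 166 CPM, and the 12 libraries from 0.01 to 10 µM lay between 134 and 174. At 100 µM the values were 193, 211 and 198 CPM, and at 1000 µM 277, 294 and 267. The 2 groups overlapped neither each other nor the controls, and both the set B and the set C libraries lay above every control. TGFBR2 was 1.85-fold higher at 1000 µM (log2 fold change 0.89, SE 0.079, edgeR adjusted p = 1.49e-08). It was higher at 100 µM by 0.41 (SE 0.079, edgeR adjusted p = 0.000285), and at 1000 over 100 µM by 0.48 (edgeR adjusted p = 7.18e-05). The set term gave 0.47 at 100 µM (edgeR adjusted p = 0.028) and 0.91 at 1000 µM (edgeR adjusted p = 3.47e-05). Within set B the rise from 10 to 1000 µM was 0.76 (edgeR adjusted p = 7.88e-08).

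SMAD3 encodes a receptor-activated transcription factor (ENSG00000166949.16, chromosome 15, 67063763 to 67195195, plus strand). Its 18 libraries from 0 to 100 µM lay in a narrow band of 43.0 to 50.3 CPM. At 1000 µM they held 69.2, 67.3 and 61.1 CPM, above all others. SMAD3 was 1.47-fold higher at 1000 µM than in control (log2 fold change 0.56, SE 0.070, edgeR adjusted p = 1.48e-06) and was higher than at 100 µM by 0.48 (edgeR adjusted p = 1.9e-05). At 100 µM its difference from control was 0.08 (edgeR adjusted p = 0.373). The rise at 1000 µM was 0.50 with the set term (edgeR adjusted p = 0.00117) and 0.45 within set B (edgeR adjusted p = 8.57e-06). The other SMADs of the complex did not pass against control: SMAD2 stood at -0.03 and 0.17 at 100 and 1000 µM (edgeR adjusted p = 0.767 and 0.0748), and SMAD4 at -0.24 (edgeR adjusted p = 0.159) and 0.25. From 100 to 1000 µM SMAD4 rose by 0.48 (edgeR adjusted p = 0.00675), with 0.32 under the set term (edgeR adjusted p = 0.000478). Within set B, SMAD4 was higher at 1000 than at 10 µM by 0.27 (edgeR adjusted p = 0.000741).

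SMAD7, the inhibitory SMAD (ENSG00000101665.9, chromosome 18, 48919853 to 48952052, minus strand), held 28.4, 30.1 and 28.9 CPM in controls and 27.2 to 34.5 CPM in the 12 libraries from 0.01 to 10 µM. At 100 µM the values were 15.97, 26.2 and 16.9, and at 1000 µM 23.7, 21.5 and 16.3. All 6 lay below every control, and the 3 lowest were the set C libraries. SMAD7 was lower by -0.56 at 100 µM (SE 0.148, edgeR adjusted p = 0.00466) and by -0.50 at 1000 µM (SE 0.148, edgeR adjusted p = 0.00674). Under the set term these values were -0.07 (edgeR adjusted p = 0.803) and -0.19 (edgeR adjusted p = 0.3), so neither call was kept. Within set B the 2 libraries at 1000 µM were lower than the 3 at 10 µM by -0.40 (edgeR adjusted p = 0.000544). The ratio of SMAD3 to SMAD7 counts within a library was 1.5 to 1.6 in controls and 2.92 to 3.76 at 1000 µM, without overlap (exact permutation p = 0.1, two-sided, n = 3 per group, the smallest possible).

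Counted over the 8 tested members, calls at an adjusted p under 0.05 began at 10 µM in the fit without the set term. At 0.01, 0.1 and 1 µM edgeR called 0 of 8, with 2, 2 and 0 at an unadjusted p under 0.05, and DESeq2 and limma-voom also called 0. The share of all tested features called at these doses was 0.0279%, 0% and 0.106% in edgeR. It was 2.16%, 0.295% and 2.28% in DESeq2 and 0.0446%, 0% and 0.134% in limma-voom. At 10 µM 2 of 8 were called, both lower (CCN1 and CCN2), against 14.8% of all features (7.49% lower). At 100 µM 6 of 8 were called, 2 higher and 4 lower, against 46.6% (23.6% higher and 22.9% lower). At 1000 µM 7 of 8 were called, 3 higher and 4 lower, against 57.6% (28.5% higher and 29.1% lower). With calls so common among all features, the count of called members at the 2 highest doses says little about them by itself. The sizes were what set CCN1 and ANKRD1 apart from the other members.

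**Figure D3:**
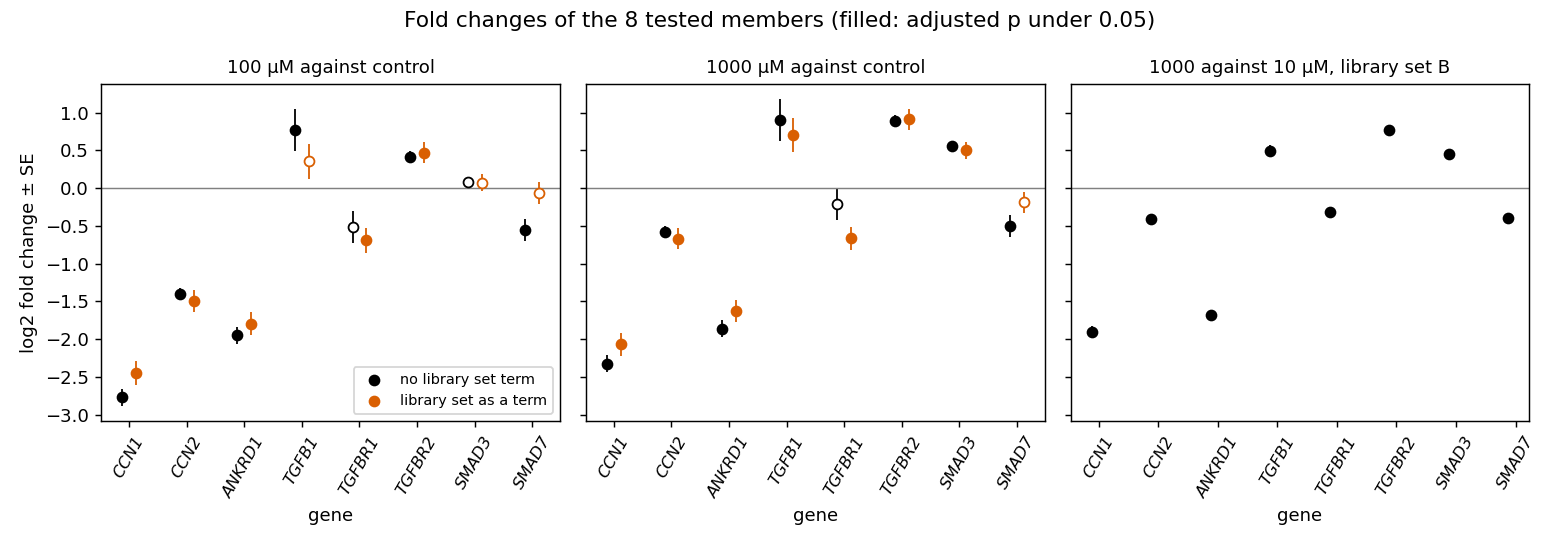
Log2 fold changes (bars: SE) of the 8 tested members at 100 and 1000 µM against control, without (black) and with (orange) the set term, and for 1000 against 10 µM within set B. Filled points passed an adjusted p of 0.05. CCN1, CCN2, ANKRD1 and TGFBR2 are filled in all 5 columns of points, and SMAD7 is open with the set term.

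Between 1000 and 100 µM, 4 of 8 members were called and all 4 were higher at 1000 µM (CCN1, CCN2, TGFBR2 and SMAD3), against 44% of all features (21.8% higher). Within set B all 8 were called, 3 higher and 5 lower at 1000 than at 10 µM, where 69.1% of features were called (34.1% higher and 35% lower). This last comparison used 5 libraries and shares no control with the others. A slope over the rank of the dose was called for 7 of 8, 3 higher and 4 lower, all but TGFBR1, against 55.3% of all features (29.6% higher and 25.7% lower). It was steepest for CCN1 at -0.47 log2 per dose step, followed by ANKRD1 at -0.37 and CCN2 at -0.17, with TGFBR2 at 0.14 and TGFB1 at 0.12. Under the set term none of these 7 slopes was called, while that of TGFBR1 was (-0.14, edgeR adjusted p = 0.0344, with 4.27% of all features called). By the set term fit 1 member was called at 0.01 µM and 1 at 1 µM, both TGFBR1 (3.02% and 0.629% of all features), 0 at 0.1 µM and 0 at 10 µM (0.0223% and 0.0279%), 5 at 100 µM (17.3%) and 7 at 1000 µM (38%). At 0.1 and 10 µM 3 and 1 of the 8 had an unadjusted p under 0.05 in that edgeR fit. The joint test of the 6 doses called 8 of 8 members, against 73.6% of all features. At 100 µM 8 of 8 members did not overlap the controls, against 51.1% of all features, and at 1000 µM 7 of 8, against 56.6%. At 0.01, 0.1, 1 and 10 µM 5, 3, 1 and 5 did not overlap, against 23.1%, 19.2%, 17.3% and 39.8%.

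The genes whose 6 fold changes lay nearest to those of CCN1, by the mean absolute difference in log2 over 10616 other genes, were IL18 (0.23), KRT15 (0.24) and ANKRD1 (0.25). IL18, an inflammatory cytokine, stood at -2.45 at 100 µM and -2.54 at 1000 µM, and KRT15, an epithelial keratin, at -2.51 and -3.14. Nearest to CCN2 were ZSWIM4 (0.06), the histone demethylase KDM6B (0.08) and FAM161B (0.09). KDM6B stood at -1.20 at 100 µM and -0.71 at 1000 µM, values that its choice as a near gene fixes in large part. CCN2 itself took place 396 in the order around CCN1, at a mean difference of 0.62, and in the order around CCN2 ANKRD1 took place 3494 and CCN1 place 8015. This distance follows the size of a change, so genes that hardly change can lie nearer to CCN2 than a gene with a larger fall. By this distance the 2 CCN genes were less alike across the doses than CCN1 and ANKRD1. All of these comparisons share the 3 control libraries.

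The mRNAs of the factors that act on these targets moved in several directions. YAP1, the co-activator itself, held 121, 111 and 122 CPM in controls, 144, 191 and 151 at 100 µM and 285, 300 and 183 at 1000 µM. All 6 treated libraries lay above every control, and the set C library was the lowest of the 3 at 1000 µM. YAP1 was higher by 0.46 at 100 µM (SE 0.145, edgeR adjusted p = 0.0146) and by 1.12 at 1000 µM (SE 0.146, edgeR adjusted p = 2.34e-06), and by 0.93 at 1000 µM with the set term (edgeR adjusted p = 3.31e-05). WWTR1, which encodes TAZ, held 128, 126 and 131 CPM in controls, 103, 90.7 and 107 at 100 µM and 157, 171 and 179 at 1000 µM. It was thus lower at 100 µM (-0.36, edgeR adjusted p = 0.000784) and higher at 1000 µM (0.40, edgeR adjusted p = 0.000178), with no overlap between the 3 groups. The dip at 100 µM and the higher level at 1000 µM were called with the set term as well (edgeR adjusted p = 0.0329 and 0.0073).

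**Figure D4:**
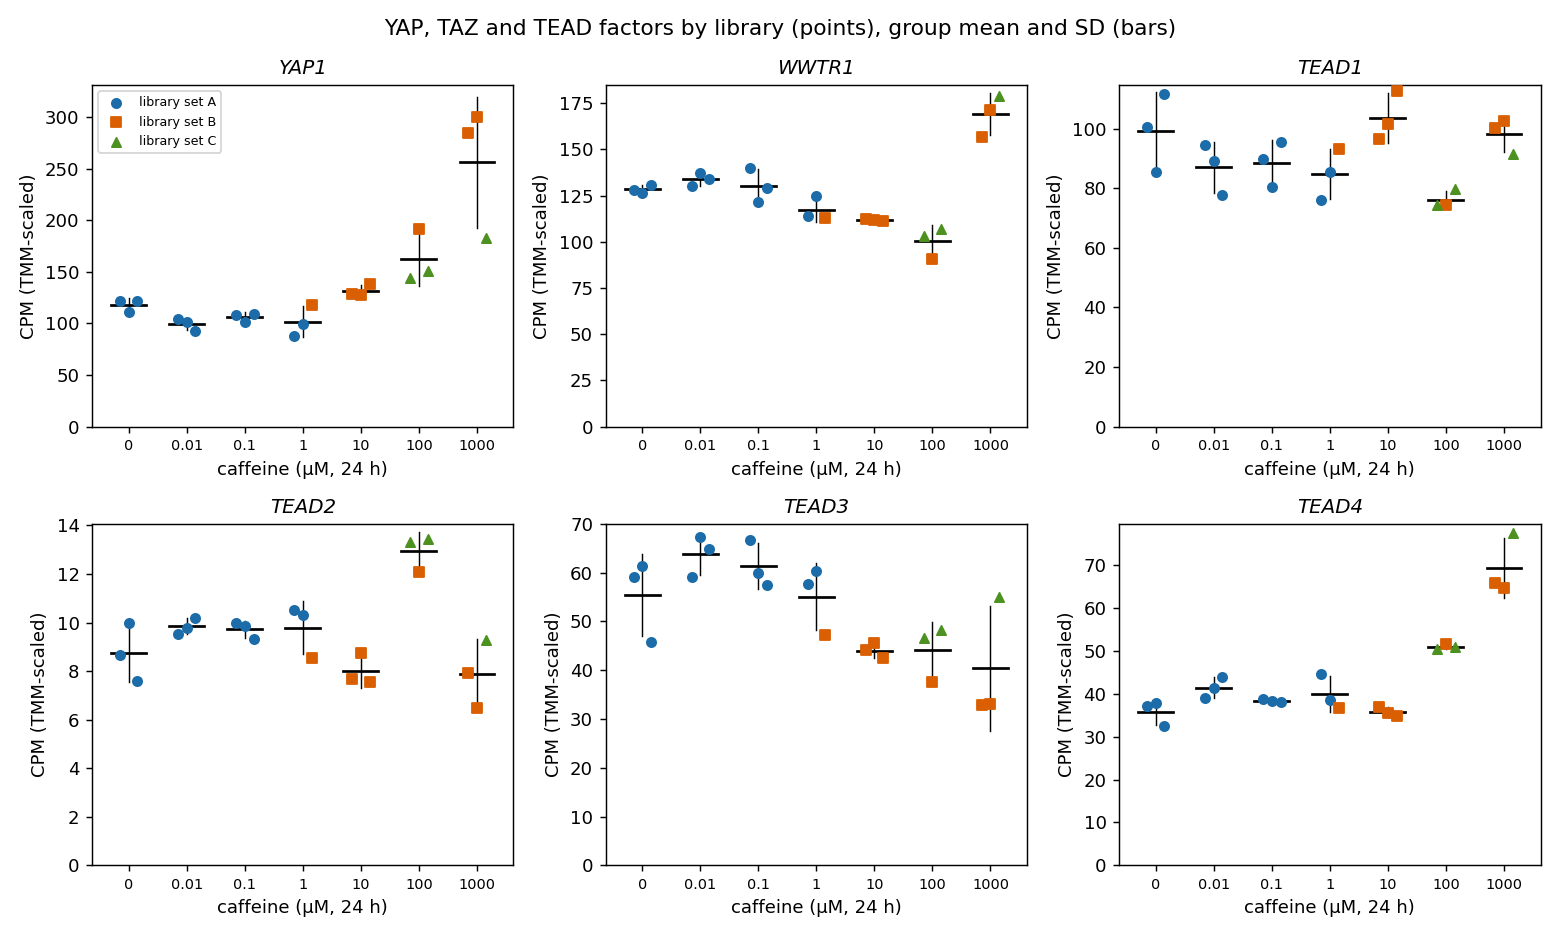
Levels of YAP1, WWTR1 and TEAD1 to TEAD4 (CPM, linear axes from 0) at each caffeine dose, with 1 point per library coloured by mitochondrial library set, and bars for the group mean and SD (n = 3). YAP1 and TEAD4 rise at 100 and 1000 µM, and WWTR1 is lowest at 100 µM and highest at 1000 µM.

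Of the TEAD factors, TEAD4 rose at both doses, with 37.1, 37.7 and 32.4 CPM in controls, 50.3, 51.6 and 50.9 at 100 µM and 65.8, 64.6 and 77.3 at 1000 µM. Its log2 fold changes were 0.51 (edgeR adjusted p = 0.000122) and 0.95 (edgeR adjusted p = 3.24e-08). TEAD2 was higher than control at 100 µM (0.56, edgeR adjusted p = 0.00126), stood at -0.15 at 1000 µM (edgeR adjusted p = 0.312), and was lower at 1000 than at 100 µM by -0.71 (edgeR adjusted p = 0.000149). TEAD1 was lower at 100 µM (-0.38, edgeR adjusted p = 0.00621) and stood at -0.01 at 1000 µM. TEAD3 was lower at 1000 µM (-0.46, edgeR adjusted p = 0.0215). With the set term TEAD4 kept both calls and TEAD2 its call at 100 µM (edgeR adjusted p = 0.0231), while TEAD1 at 100 µM (-0.55, adjusted p = 0.0533) and TEAD3 at 1000 µM (-0.36, adjusted p = 0.134) no longer passed.

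Other genes of the pathways were taken from lists. Calls were more common among features with more reads: with a minimum mean of 5 CPM, 55.5% passed at 100 µM and 66.8% at 1000 µM. Among 37 tested Hippo components, 14 rose and 10 fell at 100 µM (46.6% of all features were called) and 18 rose and 11 fell at 1000 µM (57.6%). FAT4, nearly without reads in controls, could be tested only through treated libraries, so its place in these counts is a description. The list median was -0.05 and 0.22 on the log2 scale beside -0.01 and -0.01 for all features. With the set in the fit 7 were higher and 6 lower at 100 µM and 11 higher and 5 lower at 1000 µM (17.3% and 38% of all features called), with medians of -0.01 and 0.06. LATS1, the kinase that inactivates YAP, rose by 0.80 (edgeR adjusted p = 6.56e-06) and 1.22 (edgeR adjusted p = 1.38e-08). The scaffold SAV1 rose by 0.83 and 1.01, and the ubiquitin ligase subunit BTRC rose by 1.12 at 1000 µM. The tumour suppressor RASSF1 fell by 1.68 at 100 µM and 1.10 at 1000 µM. At 1000 µM the kinase TAOK2 fell by 0.93 and the polarity gene CRB3 by 0.95. AMOTL2 binds YAP and is also one of its targets: it held 64.1, 63.1 and 49.0 CPM in controls, 21.9, 27.4 and 21.4 at 100 µM and 12.7, 12.8 and 17.3 at 1000 µM. It fell by 1.31 and 2.05 (edgeR adjusted p = 3.18e-07 and 4.27e-10). Both positive and negative parts of the pathway therefore changed, in both directions.

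Calls among the other YAP and TEAD targets were about as common as among all features at 100 µM (47.6% of the list) and made up 66.7% of the list at 1000 µM. Of 21 tested, 3 rose and 7 fell at 100 µM (46.6% of all features were called) and 8 rose and 6 fell at 1000 µM (57.6%), with medians of -0.10 and 0.25. The place of FJX1 in these counts is a description, since it had almost no reads in controls and could be tested only through treated libraries. The set term left 2 higher and 4 lower at 100 µM (17.3% of all features called) and 8 higher and 5 lower at 1000 µM (38%), with medians of -0.20 and 0.14 beside -0.03 and -0.03 for all features. AMOTL2, THBS1, NUAK2 and ARHGEF17 fell at 1000 µM, by 2.05, 1.76, 1.70 and 0.85. THBS1, which encodes a matrix protein that activates latent TGF beta, went from 40.1, 38.1 and 28.7 CPM in controls to 11.8, 11.1 and 8.66. In the other direction BIRC5, the mitotic gene for survivin, rose by 2.28 at 100 µM and 1.44 at 1000 µM, the guanine nucleotide exchange factor DOCK5 by 0.70 and 1.18, the receptor kinase AXL by 1.57 at 1000 µM, and F3, which encodes tissue factor, by 0.93 at 1000 µM. GADD45A fell by 0.98 at 100 µM. EDN1, which encodes endothelin, went from 19.5, 20.8 and 24.4 CPM in controls to 5.81, 5.14 and 5.16 at 100 µM and 36.5, 43.1 and 51.0 at 1000 µM. It fell by 2.01 at 100 µM (edgeR adjusted p = 4.13e-10) and rose by 3.02 from 100 to 1000 µM (edgeR adjusted p = 1.03e-12), with -1.97 and 3.08 under the set term. CCN3, CCN4, CCN5, CCN6 and IGFBP3 had too few counts to be tested.

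**Figure D5:**
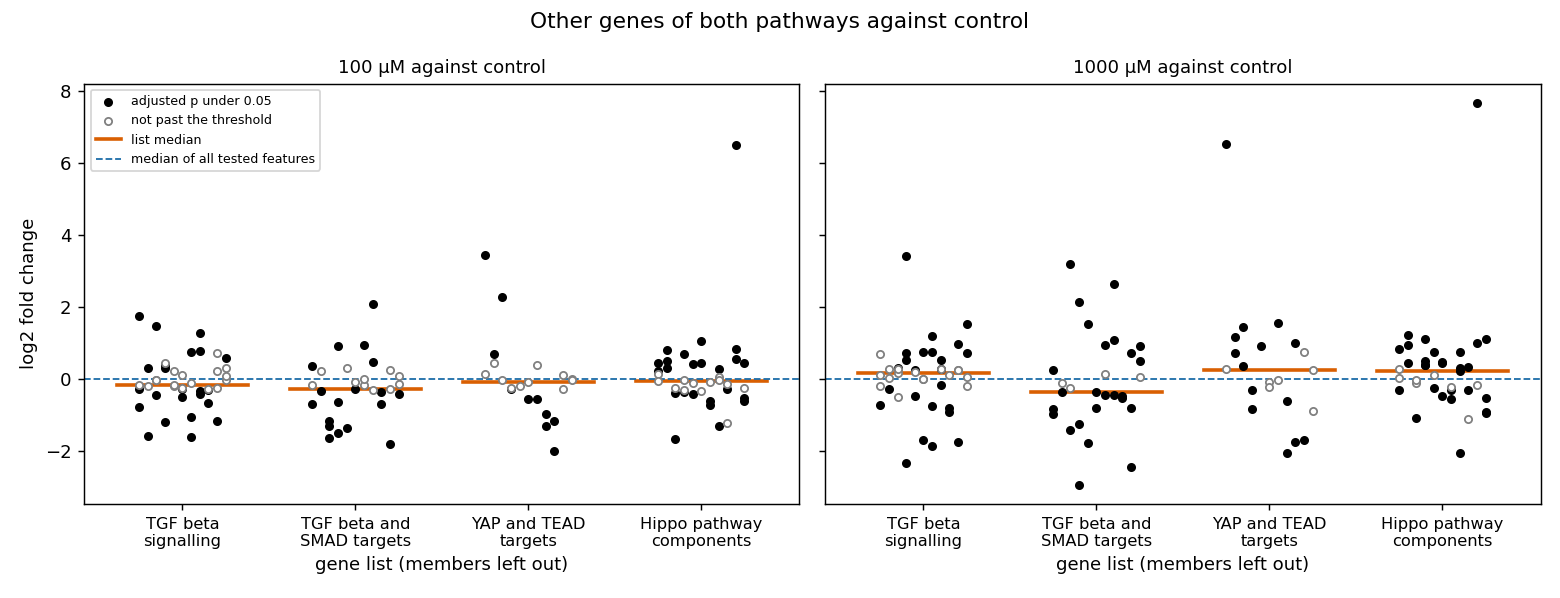
Log2 fold change of each tested gene of the 4 lists against control at 100 and 1000 µM (filled: adjusted p under 0.05), with the list median (orange) and the median of all tested features (blue, dashed). Each list spreads to both sides of 0. The 2 highest points at 1000 µM, FJX1 among the YAP targets and FAT4 among the Hippo components, are genes with a control mean below 0.01 CPM. Both could be tested only through treated libraries, so these points are a description.

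Among readouts of TGF beta and SMAD activity 62.1% were called at 100 µM and 86.2% at 1000 µM. Of 29 tested, 5 rose and 13 fell at 100 µM (46.6% of all features were called) and 10 rose and 15 fell at 1000 µM (57.6%), with medians of -0.27 and -0.35. With the set in the fit the split was 3 higher and 6 lower at 100 µM and 9 higher and 10 lower at 1000 µM (17.3% and 38% of all features called), with medians of -0.08 and -0.05. TAGLN, an actin-binding protein of smooth muscle and myofibroblasts, held 97.0, 98.4 and 80.6 CPM in controls, 61.3, 58.5 and 56.0 at 100 µM and 10.7, 11.8 and 13.4 at 1000 µM. It fell by 2.95 at 1000 µM (edgeR adjusted p = 5.21e-14). The tropomyosin gene TPM1 fell by 1.16 and 1.42, the differentiation inhibitor ID2 by 1.38 and 1.78 (-0.83 and -1.15 under the set term), and the basement membrane collagen COL4A2 by 2.46 at 1000 µM. The cell cycle inhibitor CDKN2B, at 0.672, 0.779 and 0.767 CPM in controls, stood at 0.225, 0.341 and 0.309 at 100 µM and at 6.58, 7.37 and 6.38 at 1000 µM. It met the 1 CPM minimum for named genes only through its 1000 µM libraries, so these levels are a description. The same holds for SNAI1, a transcription factor that drives epithelial to mesenchymal transition, which met that minimum through its 100 and 1000 µM libraries. It stood at 0.764, 0.987 and 0.575 CPM in controls, 3.79, 2.62 and 3.79 at 100 µM and 3.98, 2.98 and 7.84 at 1000 µM. The pro-apoptotic gene BMF rose by 0.91 and 2.15.

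Among 41 other tested components of TGF beta signalling, 9 rose and 14 fell at 100 µM (46.6% of all features were called) and 13 rose and 11 fell at 1000 µM (57.6%), with medians of -0.17 and 0.17. At 56.1% and 58.5% of the list, calls were not much more common than among all features. With the set in the fit 2 were higher and 8 lower at 100 µM and 8 higher and 7 lower at 1000 µM (17.3% and 38% of all features called), with medians of -0.17 and 0.03. FST, which encodes the activin antagonist follistatin, held 16.3, 16.4 and 19.3 CPM in controls, 23.1, 18.8 and 22.4 at 100 µM and 178, 181 and 199 at 1000 µM, a rise of 3.43 (edgeR adjusted p = 1.81e-13). The SMAD repressor SKIL rose by 1.54 at 1000 µM, the BMP-responsive SMAD1 by 1.19 and the co-receptor TGFBR3 by 0.73. Of the ligands, GDF11 fell by 1.87 and the activin subunit INHBC by 1.71 at 1000 µM, and INHBE fell by 1.57 at 100 µM. The co-repressor TGIF1 fell by 1.62 at 100 µM and 0.75 at 1000 µM. The activin receptor ACVR1B rose by 0.77 at 100 µM, and the SMAD partner FOXH1 by 1.28. Of the list genes named above, FOXH1 at 100 µM did not pass with the set term (0.54, edgeR adjusted p = 0.164). At 1000 µM the set term gave smaller sizes for RASSF1 (-0.73) and TGIF1 (-0.49) and a larger one for SMAD1 (1.80). These genes were named for their small p, so the calls they kept are no separate support.

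Within set B, where neither the controls nor set C enter, 69.1% of all features were called, so counts in the lists are read against that share. With a minimum mean of 5 CPM the share called was 79.6%. From 10 to 1000 µM 15 components of TGF beta signalling rose and 12 fell of 41 tested (65.9% called, below both shares). Of 28 TGF beta and SMAD targets 10 rose and 15 fell (89.3%), of 21 YAP and TEAD targets 9 rose and 8 fell (81%), and of 36 Hippo components 17 rose and 11 fell (77.8%). YAP1 rose by 1.13 there, WWTR1 by 0.53 and TEAD4 by 0.85, while AMOTL2 fell by 1.90, THBS1 fell by 1.95 and TAGLN fell by 3.13. FST rose by 3.27. CCN1 and ANKRD1 thus fell within this set beside a rise of the mRNAs for YAP, TAZ and TEAD4.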

How the data were processed

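RNA-seq counts of 21 HepG2 libraries, in 7 groups of 3, were analysed. The authors deposited whole-number read counts per feature without normalization. HISAT2, DESeq2 and GRCh38 are named in the submitters' processing notes, without versions; the counting tool, annotation release and use of strand are not given in the sources used here, so reads from overlapping or antisense genes cannot be told apart. Of 32937 Ensembl features, 24852 matched a symbol, and 4700 were unannotated loci. Another 21 columns, which match no sample, were not used. The 3 replicates are labelled biological.

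Counts were tested with edgeR 4.0.16 (R 4.3.3): TMM, filterByExpr, robust quasi-likelihood F-test, 1 mean per group over all libraries, Benjamini-Hochberg over the 17951 tested features, threshold 0.05 (17090 features within set B). The SE is the log2 fold change divided by the root of F. Library sets came from average-linkage clustering of the 13 mitochondrial mRNAs (3 clusters, mean silhouette 0.571, against 0.525 for 2). Tested members had 384 to 40560 counts per library. Alternatives were DESeq2 1.42.0, limma-voom 3.58.1, DESeq2 size factors, another prior count, other filters, a replicate block, the set as a term, single-dose fits and leaving out each library. The test was checked on simulated counts. Library pairs of 1 group differed beyond counting noise.

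The members and lists were chosen with earlier results of these data known. List genes named were, per direction, up to 4 at 1000 µM and 2 at 100 µM by smallest p, among called genes with a mean of at least 1 CPM and no overlap with controls; YAP1, WWTR1, TEAD1 to TEAD4, SMAD2, SMAD4, IGFBP3 and the CCN family were named whatever they showed; 1 other gene of that rule is not reported here. FJX1 and FAT4 were named after their values were seen. Nearest genes had a mean of at least 5 CPM. The floor of 3 counts covers counting error only.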

Additional observations from a re-analysis of the deposited data

How the results depend on the processing

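For single members, 582 of the values under an alternative that kept all libraries stayed on their side of the threshold with their direction, 17 lost the call, 11 gained it and 6 changed sign. Adding the library set changed the sign for ANKRD1 (0.021), TGFB1 (0.052) and TGFBR1 (-0.315) at 10 µM, SMAD3 at 1 µM (-0.002) and SMAD7 between 1000 and 100 µM (-0.120). With no filter it changed for TGFBR2 at 0.1 µM (0.024). None of these 6 passed the test in either form, and the cause was not tested. With the set term 1 member was called at 0.01 µM (3.02% of all features), 1 at 1 µM (0.629%), 0 at 10 µM (0.0279%; 1 at an unadjusted p under 0.05 in edgeR) and 1 for the slope (4.27%). With no filter 1 was called at 10 µM (4.98% of all features). The set term left 10 components of TGF beta signalling called at 100 µM and 15 at 1000 µM, 9 TGF beta and SMAD targets and 6 YAP and TEAD targets at 100 µM, and 13 and 16 Hippo components at 100 and 1000 µM, where 17.3% and 38% of all features were called. With control and 1000 µM alone in the fit, 19 Hippo components were called (50% of all features, against 57.6% with all groups). Leaving out each library in turn called 0 to 0 members in the 0.01, 0.1 and 1 µM groups, 0 to 3 in the 10 µM group, 5 to 7 in the 100 µM group and 6 to 7 in the 1000 µM group. It called 4 to 6 for 1000 against 100 µM, 8 to 8 within set B, 6 to 7 for the slope and 7 to 8 in the joint test. The share of all features called in these fits is not given, so the ranges show only how far the counts moved. The members whose sign changed when a library was left out ranged as follows: TGFB1 from -0.476 to 0.380 for 1000 against 100 µM, TGFBR1 from -0.391 to 0.033 at 1000 µM and from -0.021 to 0.015 for the slope. TGFBR2 ranged from -0.098 to 0.021 at 0.01 µM, from -0.056 to 0.067 at 0.1 µM and from -0.113 to 0.012 at 1 µM. SMAD3 ranged from 0.000 to 0.079 at 1 µM, and SMAD7 from -0.019 to 0.076 at 10 µM and from -0.082 to 0.321 for 1000 against 100 µM. Of these, the value of -0.476 for TGFB1 passed the test (edgeR adjusted p = 0.0168), without 1000 µM replicate 3, and that of 0.321 for SMAD7 did so (edgeR adjusted p = 0.041), without 100 µM replicate 2.

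Replicate numbers did not pair the libraries: in 0 of 21 pairs of groups were all same-numbered correlations of deviations above 0.1, with means from -0.108 to 0.152. With the replicate number as a block the members called were 2 at 10 µM, 6 at 100 µM and 7 at 1000 µM, as without it (12.7%, 45.1% and 56.6% of all features). Depth limited the analysis for TGFB2, which had at most 2 counts in any library.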
